A study of Mus musculus with 12 samples.

Results

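The RANK receptor and the signalling genes beneath it were followed across 4 groups of cultured mouse bone marrow cells. The 10 genes were Tnfrsf11a (RANK), the adaptor genes Traf6, Traf2 and Traf3, Map3k14 (the kinase NIK), and the 5 NF-kB subunit genes Nfkb1, Nfkb2, Rel, Rela and Relb. They were chosen by name and matched to Ensembl gene identifiers, 10 of the 41388 genes counted, and all 10 passed the filter on low counts. The data were 12 RNA-seq libraries, 3 per group, made from C57BL/6 mice carrying a floxed Asxl2 allele (flox) or labelled as LysM Cre positive knockouts (KO). The LysM Cre allele places the recombinase under the control of Lyz2, which is active in the myeloid lineage, and so targets Asxl2, a gene for a Polycomb group chromatin factor, in macrophages and their precursors. No group with LysM Cre and intact Asxl2 was analysed here, so the effects of the Cre and of Asxl2 loss cannot be told apart. Marrow cells of both genotypes were cultured for 5 days in medium with 10% serum, detached and replated. They were then kept for 2 days in 2% M-CSF, the macrophage growth factor, alone (flox_BMM and KO_BMM, bone marrow macrophages) or with 50 ng/ml RANKL added (flox_OC and KO_OC, labelled osteoclast). Neither age nor sex is labelled. Nothing in the labels ties replicates to individual animals, so a p-value here reflects how much the replicates vary, and that variation could be purely technical.

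RANK is a TNF receptor family member with no kinase activity of its own. On binding RANKL it recruits TRAF adaptors, and TRAF6 links it to the TAK1 and IKK kinases of the canonical NF-kB route, which releases dimers of p50 (from Nfkb1), RelA and c-Rel. In the non-canonical route TRAF2 and TRAF3 keep NIK low until the receptor is engaged, after which NIK drives the processing of the Nfkb2 product to p52, the partner of RelB. Both routes are known to act in osteoclast formation from macrophage precursors.

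The promoters of 3 of the genes held a match to the kappaB consensus, the DNA element bound by NF-kB dimers, and are shown because the largest RANKL response belonged to one of them. Windows of 300 bases, from 250 before to 50 after an annotated start, came from RefSeq (GRCm38.p6) and were found for 8 of the 10 genes, not for Nfkb1 or Relb. Both strands were searched, and overlapping matches were counted separately. Capitals mark the matches. The Nfkb2 windows are chr19:46304487-46304786 and chr19:46305445-46305744, both on the plus strand, the Traf3 window is chr12:111166120-111166419 on the plus strand, and the Rel window is chr11:23770920-23771219, read on the minus strand.
Nfkb2, first start: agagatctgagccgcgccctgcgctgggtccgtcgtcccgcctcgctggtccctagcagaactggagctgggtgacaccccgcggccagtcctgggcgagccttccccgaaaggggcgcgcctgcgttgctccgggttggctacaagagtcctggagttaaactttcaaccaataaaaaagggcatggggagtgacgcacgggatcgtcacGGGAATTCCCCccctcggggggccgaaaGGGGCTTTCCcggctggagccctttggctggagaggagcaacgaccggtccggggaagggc
Nfkb2, second start: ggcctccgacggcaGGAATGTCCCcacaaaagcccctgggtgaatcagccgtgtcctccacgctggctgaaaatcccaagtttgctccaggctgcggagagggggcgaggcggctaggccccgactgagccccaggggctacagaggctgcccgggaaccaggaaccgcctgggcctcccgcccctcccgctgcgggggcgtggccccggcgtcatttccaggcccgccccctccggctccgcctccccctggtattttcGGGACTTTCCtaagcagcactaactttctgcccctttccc
Traf3: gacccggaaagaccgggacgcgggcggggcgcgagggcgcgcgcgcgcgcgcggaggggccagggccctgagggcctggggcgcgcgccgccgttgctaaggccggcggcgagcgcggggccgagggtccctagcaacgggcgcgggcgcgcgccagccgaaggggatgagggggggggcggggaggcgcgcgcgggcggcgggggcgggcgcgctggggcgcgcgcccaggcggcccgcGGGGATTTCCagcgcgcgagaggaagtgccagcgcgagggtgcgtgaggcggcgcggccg
Rel: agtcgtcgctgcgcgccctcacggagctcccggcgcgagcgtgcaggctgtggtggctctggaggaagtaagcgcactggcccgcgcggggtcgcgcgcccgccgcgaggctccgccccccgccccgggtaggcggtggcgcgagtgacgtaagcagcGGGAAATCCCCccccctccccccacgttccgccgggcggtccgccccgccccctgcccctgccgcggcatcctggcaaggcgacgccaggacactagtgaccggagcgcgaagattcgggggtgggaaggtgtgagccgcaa

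The 10 genes lie at chr1:105780718-105847981 (Tnfrsf11a), chr2:101678429-101701669 (Traf6), chr2:25517982-25546940 (Traf2), chr12:111166370-111267153 (Traf3), chr11:103219762-103267472 (Map3k14), chr3:135584655-135691547 (Nfkb1), chr19:46304737-46312090 (Nfkb2), chr11:23741514-23770970 (Rel), chr19:5637483-5648130 (Rela) and chr7:19606217-19629438 (Relb) of GRCm38. Exonic bases shared with another gene were found for Map3k14 (2.06%) and Nfkb2 (0.122%, with Psd), and for none of the other 8.

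In the first Nfkb2 window GGGAATTCCC began at -39 from the start, overlapped by the reverse-strand match GGAATTCCCC at -38, and GGGGCTTTCC began at -11. The second Nfkb2 window held GGAATGTCCC at -236, a match on the reverse strand, and GGGACTTTCC at 11. A further annotated Nfkb2 window, chr19:46305680-46305979, overlaps the second and holds that same GGGACTTTCC at -225. Traf3 carried GGGGATTTCC at -10, and Rel carried GGGAAATCCC at -92 with the overlapping reverse-strand GGAAATCCCC at -91. Windows with at least 1 match made up 5 of the 10 windows of these genes and 8.46% of all 32851 windows in the table. The windows of Tnfrsf11a, Traf6, Traf2, Map3k14 and Rela did not contain these letters. A match is a description of the sequence, not evidence of binding. Of the genes with a match, Nfkb2 and Traf3 rose with RANKL in both genotypes, while Rel did not pass in either. Traf2, without a match, also rose in both. A link between matches and RANKL responses was not tested.

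The libraries held 18489873 to 21667237 counts. Levels are given in CPM (counts scaled to the library size with TMM factors). The most that a gene with a count of 0 could hide, 3 counts, corresponded to 0.138 to 0.162 CPM by library size alone, without TMM factors. That limit reflects counting error alone, because duplicates from PCR were not distinguished. All 10 genes stood above 16 CPM in every library. Asxl2, the targeted gene, was at 93.1 ± 3.01 CPM (SD, n = 3) in flox_BMM and 15.1 ± 0.265 in KO_BMM, and at 73.4 ± 2.27 in flox_OC and 13.7 ± 1.24 in KO_OC. All 8 macrophage markers examined were present in each group. Of the 9 osteoclast markers, Calcr and Oscar stayed at or below 0.113 CPM on average, including in the RANKL cultures, while the summed level of the 9 was 134 to 141 CPM in flox_BMM, 91.0 to 92.2 in KO_BMM, 393 to 416 in flox_OC and 183 to 195 in KO_OC. The flox_BMM libraries varied most among themselves, with a chi-square per degree of freedom of up to 5.05 between replicates against up to 2.00 in the other groups.

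With M-CSF alone, KO cells had lower levels of the receptor gene, of NIK and of the non-canonical subunits than flox cells. Of the 10 genes, 7 were lower in KO_BMM (edgeR quasi-likelihood test, adjusted p under 0.05), 0 were higher and 3 did not pass, while 39.9% of the 13030 genes tested passed in this comparison. The median log2 fold change was -0.23 over the 10 genes and 0.00081 over all genes tested. The 7 genes were Relb, Tnfrsf11a, Nfkb2, Map3k14, Traf3, Nfkb1 and Rela, in order of the size of the fall.

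Tnfrsf11a, the receptor itself, was at 297, 267 and 250 CPM in the 3 flox_BMM libraries and at 179, 171 and 168 CPM in KO_BMM. All 3 KO libraries lay below all flox libraries, and the flox libraries were the more spread. The difference was -0.65 log2 (SE 0.0451, edgeR adjusted p = 3.43e-10), a 1.57-fold lower level. In bulk RNA, fewer cells of a type and less RNA per cell cannot be told apart. For Relb, the partner of p52, the flox_BMM libraries gave 31.0, 31.3 and 34.9 CPM and the KO_BMM libraries 16.5, 17.5 and 19.4 CPM. Its groups did not overlap, and its 1.81-fold lower level (-0.86 log2, SE 0.0607, adjusted p = 1.2e-16) was the largest genotype difference of the 10 genes. Nfkb2, which encodes the p52 precursor, was at 80.0, 85.6 and 81.0 CPM in flox_BMM and at 54.5, 56.4 and 54.6 CPM in KO_BMM. That was 1.49-fold lower, again without overlap (-0.58 log2, SE 0.0375, adjusted p = 6.9e-18). Map3k14, the NIK gene, gave 32.7, 34.5 and 31.7 CPM against 23.8, 24.0 and 22.3 CPM, a separation of 1.41-fold (-0.50 log2, SE 0.0583, adjusted p = 6.94e-10). The gene it shares exonic bases with, 1700028N14Rik, averaged 0.667 counts per library.

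The adaptor and canonical genes differed less. Traf3, an inhibitor of NIK in resting cells, was at 73.0, 73.1 and 64.7 CPM in flox_BMM and at 56.4, 55.5 and 59.6 CPM in KO_BMM, which differed by -0.30 log2 (SE 0.0421, adjusted p = 7.1e-08). Nfkb1 was at 202, 195 and 191 CPM in flox_BMM and 175, 176 and 174 CPM in KO_BMM, a difference of -0.16 log2 (SE 0.0298, adjusted p = 1.12e-05). Both genes were lower in every KO library than in any flox library. Rela overlapped between genotypes (130, 137 and 134 CPM against 122, 127 and 130 CPM) and passed narrowly (-0.08 log2, SE 0.0329, adjusted p = 0.0462). Its call was lost in 15 of 18 alternative settings, for example without flox_BMM replicate 2 (adjusted p = 0.219) or KO_BMM replicate 1 (adjusted p = 0.264). Traf6 (57.0 ± 2.03 against 57.3 ± 1.4 CPM), Traf2 (24.0 ± 2.32 against 25.6 ± 0.533 CPM) and Rel (27.5 ± 0.165 against 28.9 ± 0.679 CPM) did not pass, with adjusted p of 0.92, 0.267 and 0.309.

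**Figure D1:**
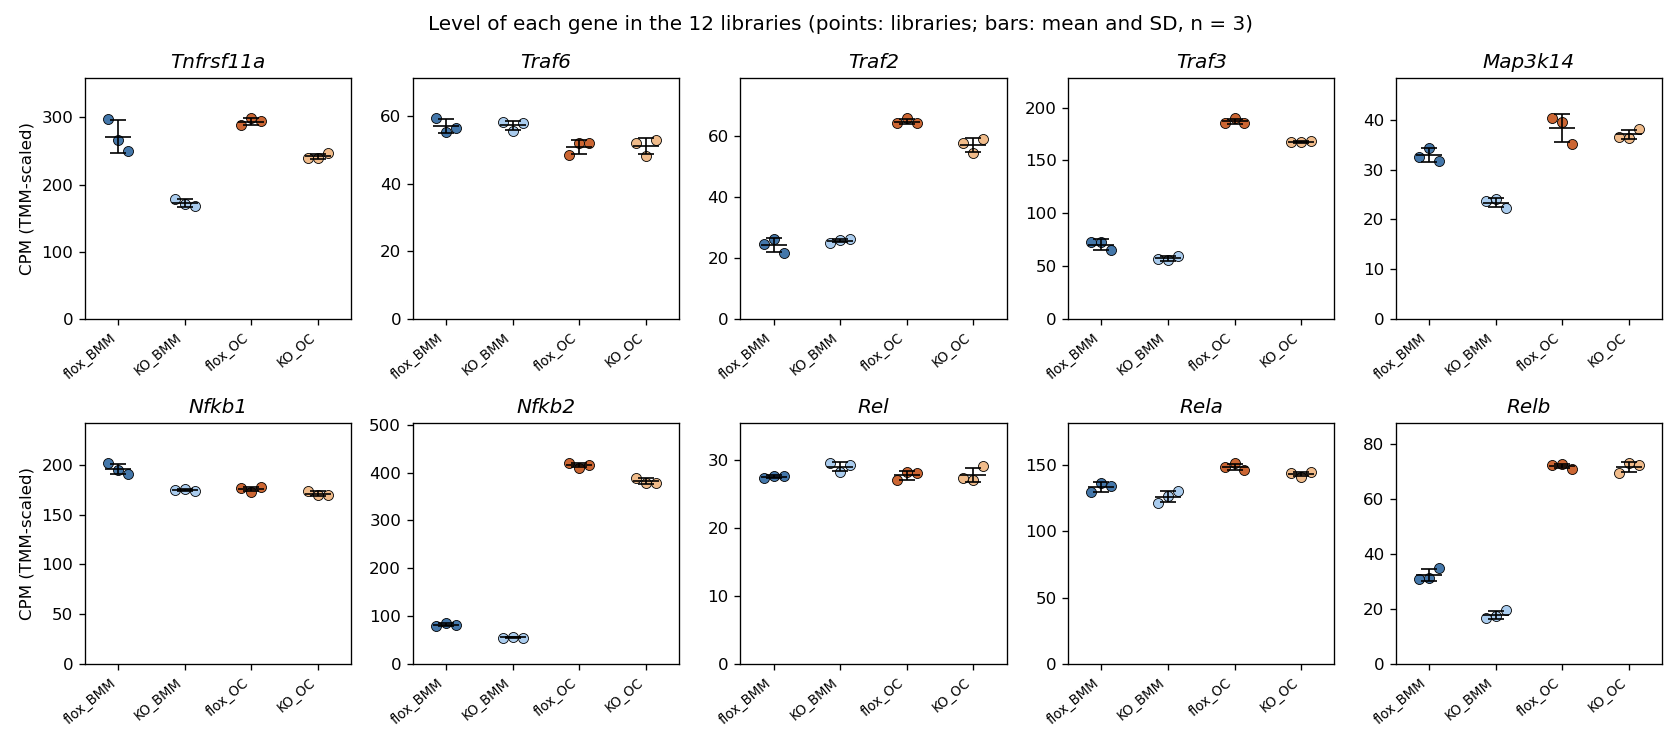
TMM-scaled CPM of each of the 10 genes (linear axis from 0) in the 12 libraries, by group. Points are libraries and bars the mean and SD of 3. Relb in KO_BMM stands at 17.8 CPM on average against 32.4 in flox_BMM, while both RANKL groups sit near 71 to 72, and Nfkb2 stands at 415 and 382 CPM in the RANKL groups.

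Markers of other cells moved with genotype as well. Over all genes tested, 39.9% differed between genotypes in BMM and 41.3% in OC. Of 10 stromal and osteoblast markers, 7 were tested and all 7 were lower in KO cells in both cultures, with a summed level of 198 to 218 CPM in flox_BMM and 63.2 to 71.5 in KO_BMM, and of 168 to 171 in flox_OC and 51.0 to 60.4 in KO_OC. Bglap, an osteoblast gene, was at 0 in all 12 libraries. Neutrophil markers were lower for 3 of the 4 tested in both cultures (8 were listed), summing to 77.6 to 82.1 CPM in flox_BMM against 25.9 to 27.9 in KO_BMM, and to 33.5 to 35.4 in flox_OC against 10.1 to 11.9 in KO_OC. Most of that sum was Mmp8 (72.9 CPM in flox_BMM and 22.5 in KO_BMM), while S100a8 was at 4.28 and 3.04 CPM and Ly6g at 0 in all libraries. Both tested megakaryocyte markers fell, the sum of the 4 listed going from 343 to 408 CPM down to 48.0 to 52.1 in BMM and from 134 to 141 down to 15.2 to 16.2 in OC, nearly all of it from Pf4, while Gp9 was at 0 in KO cells. Of 6 B cell markers 2 were tested and 1, Ighm, was lower in both cultures (1.52-fold in BMM, adjusted p = 5.82e-11, and 1.51-fold in OC, adjusted p = 3.13e-07), the sum being 25.7 to 27.6 CPM in flox_BMM and 16.8 to 18.5 in KO_BMM. T and NK cell markers and dendritic cell markers each summed to at most 4.89 CPM in any library. Of the 8 macrophage markers 6 were lower and 2 higher in KO_BMM (summed level 27940 to 28690 CPM against 31540 to 32570), and 2 were lower and 4 higher in KO_OC. Most of the macrophage sum was Lyz2 (21790 CPM in flox_BMM and 19550 in KO_BMM), the gene that controls the Cre. The part of these cells in the genotype differences of the 10 genes was not tested.

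After 2 days of RANKL the receptor gene was still lower in KO cells, and so was Nfkb2. In KO_OC against flox_OC, 4 genes were lower (Tnfrsf11a, Traf2, Traf3 and Nfkb2), 0 were higher and 6 did not pass, against 41.3% of all genes tested that passed. The median log2 fold change of the 10 was -0.05, and that of all genes was 0.0060.

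Tnfrsf11a was at 289, 299 and 295 CPM in flox_OC and 240, 239 and 247 CPM in KO_OC. Every KO library was lower, by 1.21-fold (-0.28 log2, SE 0.0434, edgeR adjusted p = 2.76e-05). Traf2, a TRAF that forms the complex restraining NIK, was at 64.1, 65.6 and 64.0 CPM against 57.6, 54.2 and 58.8 CPM (-0.18 log2, SE 0.0434, adjusted p = 0.000584). Traf3 gave 186, 190 and 185 CPM against 167, 167 and 168 CPM (-0.16 log2, SE 0.0328, adjusted p = 9.97e-05). Nfkb2 gave 419, 411 and 416 CPM against 389, 378 and 378 CPM (-0.12 log2, SE 0.0273, adjusted p = 0.000283). These 4 genes did not overlap between genotypes.

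Relb did not differ detectably in the RANKL cultures. Its level was 72.0, 72.4 and 70.9 CPM in flox_OC and 69.3, 72.8 and 72.3 CPM in KO_OC, groups that overlapped (-0.0069 log2, SE 0.0408, adjusted p = 0.914). Map3k14 was at 40.3, 39.7 and 35.2 CPM against 36.7, 36.5 and 38.2 CPM, also overlapping (-0.05 log2, SE 0.0509, adjusted p = 0.459). Among the others, Nfkb1 differed by -0.04 (SE 0.0298), Rela by -0.05 (SE 0.0318), Traf6 by 0.0068 (SE 0.0442) and Rel by 0.0020 log2 (SE 0.0528). Rela, at 146 to 151 CPM in flox_OC and 141 to 145 in KO_OC, had no overlap between its libraries although it did not pass (adjusted p = 0.19). Absence of overlap was common: it held for 7 of the 10 genes in BMM and 5 in OC, and for 46.6% and 51.3% of all genes tested. Those in BMM included Rel, which did not pass and was higher in every KO library (28.2 to 29.4 against 27.3 to 27.7 CPM). Rela was not among them.

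**Figure D2:**
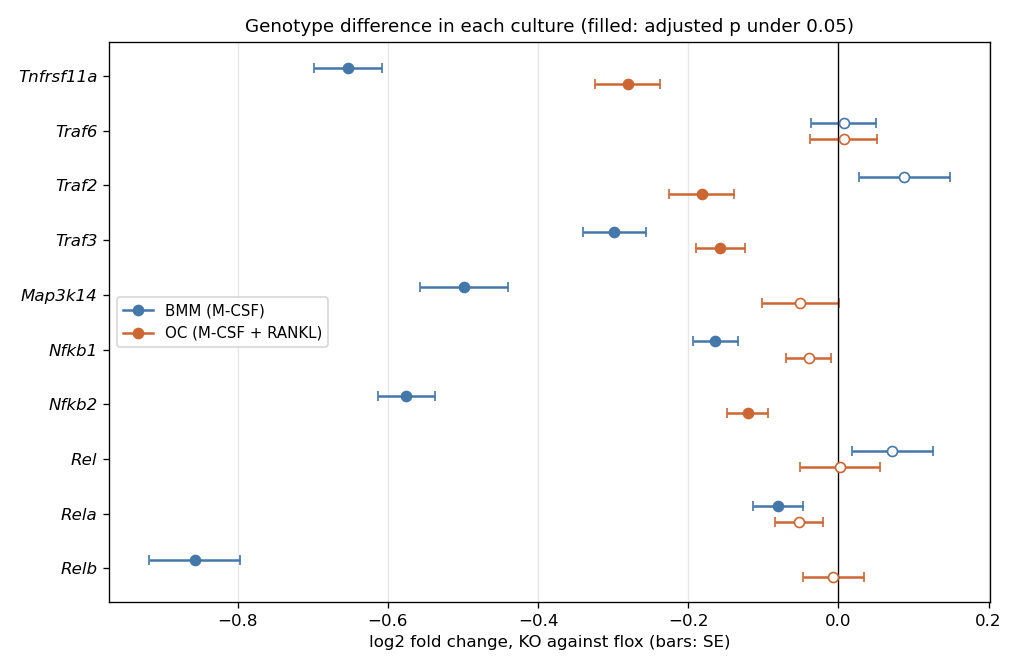
Log2 fold change of KO against flox (x axis, bars are the SE) for each gene in the M-CSF and RANKL cultures. Filled points passed at an adjusted p under 0.05. Relb is at -0.86 in BMM and -0.0069 in OC, and Tnfrsf11a at -0.65 and -0.28.

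RANKL raised Nfkb2, Relb, Traf2 and Traf3 most in both genotypes. In flox cells 7 of the 10 were higher in OC than in BMM, 2 were lower and 1 did not pass, against 74.8% of all genes tested that passed. In KO cells 7 were higher, 1 was lower and 2 did not pass, against 70.5% of all genes. The median log2 fold change of the 10 was 0.19 in flox and 0.58 in KO cells, beside -0.0036 and 0.0017 over all genes. The flox and KO comparisons use separate libraries, but each shares its BMM and OC libraries with the genotype comparisons above. All 8 macrophage markers fell with RANKL in flox cells (summed level 31540 to 32570 CPM in flox_BMM and 15470 to 15880 in flox_OC) and 7 of 8 in KO cells (16450 to 16690 in KO_OC). Most of that sum was Lyz2 (10620 CPM in flox_OC and 11670 in KO_OC). Of the markers of other cells, Ighm, Pf4 and Mmp8 were lower as well. In flox cells 2 of 4 tested neutrophil, 2 of 2 B cell, 2 of 2 megakaryocyte and 1 of 1 T and NK cell markers were lower. Of 7 tested stromal and osteoblast markers 4 were lower and 1, Runx2, was higher, as was 1 of 2 dendritic cell markers. The part of these cells in the RANKL effects of the 10 genes was not tested.

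Nfkb2 had the largest rise. Its level went from 80.0 to 85.6 CPM in flox_BMM to 411 to 419 CPM in flox_OC, a 5.05-fold increase (2.34 log2, SE 0.0316, edgeR adjusted p = 7.74e-47). In KO cells it went from 54.5 to 56.4 CPM to 378 to 389 CPM, which is 6.92-fold (2.79 log2, SE 0.0331, adjusted p = 6.95e-49). In absolute size, 97.1% of genes changed less than Nfkb2 in flox cells and 98.4% in KO cells. Relb rose 2.22-fold in flox cells (1.15 log2, SE 0.0472, adjusted p = 8.16e-27) and 4.0-fold in KO cells (2.00 log2, SE 0.0523, adjusted p = 9.07e-35). Starting from the lower KO_BMM level, it reached the 69.3 to 72.8 CPM range given above for both OC groups.

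The adaptor genes Traf2 and Traf3 rose in both genotypes. Traf3 increased 2.66-fold in flox cells (1.41 log2, SE 0.0367, adjusted p = 5.01e-35) and 2.93-fold in KO cells (1.55 log2, SE 0.0378, adjusted p = 4.69e-36). Traf2, from 21.5 to 26.0 CPM in flox_BMM and 25.0 to 26.0 in KO_BMM, increased 2.68-fold in flox (1.42 log2, SE 0.0514, adjusted p = 4.23e-29) and 2.22-fold in KO cells (1.15 log2, SE 0.0511, adjusted p = 2.53e-25). Traf6 was lower by a small amount in both genotypes with TMM scaling, at 59.3, 55.4 and 56.3 CPM in flox_BMM and 48.5, 52.1 and 51.9 CPM in flox_OC (-0.16 log2, SE 0.044, adjusted p = 0.000895), but at 0.0046 log2 when scaled by library size alone (adjusted p = 0.929). In KO cells the Traf6 difference was -0.16 log2 with TMM (SE 0.0437, adjusted p = 0.000904) and -0.03 by library size (adjusted p = 0.561).

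Map3k14 rose 1.17-fold in flox (0.22 log2, SE 0.0528, adjusted p = 0.000233) and 1.59-fold in KO cells (0.67 log2, SE 0.0562, adjusted p = 6.81e-15), and neither pair of groups overlapped. Tnfrsf11a rose 1.4-fold in KO cells, from 168 to 179 CPM to 239 to 247 CPM (0.49 log2, SE 0.0451, adjusted p = 7.84e-09). In flox cells the receptor gene's BMM and OC libraries overlapped, and its rise of 0.12 log2 (SE 0.0433, adjusted p = 0.022) was lost on leaving out flox_BMM replicate 2 (0.10, adjusted p = 0.101), flox_BMM replicate 3 (0.06, adjusted p = 0.111), flox_OC replicate 2 (0.10, adjusted p = 0.0777) or flox_OC replicate 3 (0.11, adjusted p = 0.0646). Rela rose slightly in both genotypes, by 0.15 log2 in flox (SE 0.0323, adjusted p = 3.84e-05) and 0.18 in KO cells (SE 0.0324, adjusted p = 2.83e-06). Nfkb1 was lower with RANKL in flox cells with TMM scaling (-0.16 log2, SE 0.0296, adjusted p = 8.11e-06) but at 0.01 by library size alone (adjusted p = 0.677). In KO cells Nfkb1 did not pass with TMM (-0.03 log2, SE 0.0299, adjusted p = 0.363) and was higher by library size (0.10, adjusted p = 0.00128). Rel stayed between 26.9 and 29.4 CPM in all 12 libraries, and did not pass in flox (0.0095 log2, SE 0.0538, adjusted p = 0.88) or KO cells (-0.06 log2, SE 0.0529, adjusted p = 0.312). Scaling by library size alone raised the median of all genes by 0.17 log2 in the flox and 0.14 in the KO comparison, and put the Rel difference in flox cells at 0.18 (adjusted p = 0.00289).

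**Figure D3:**
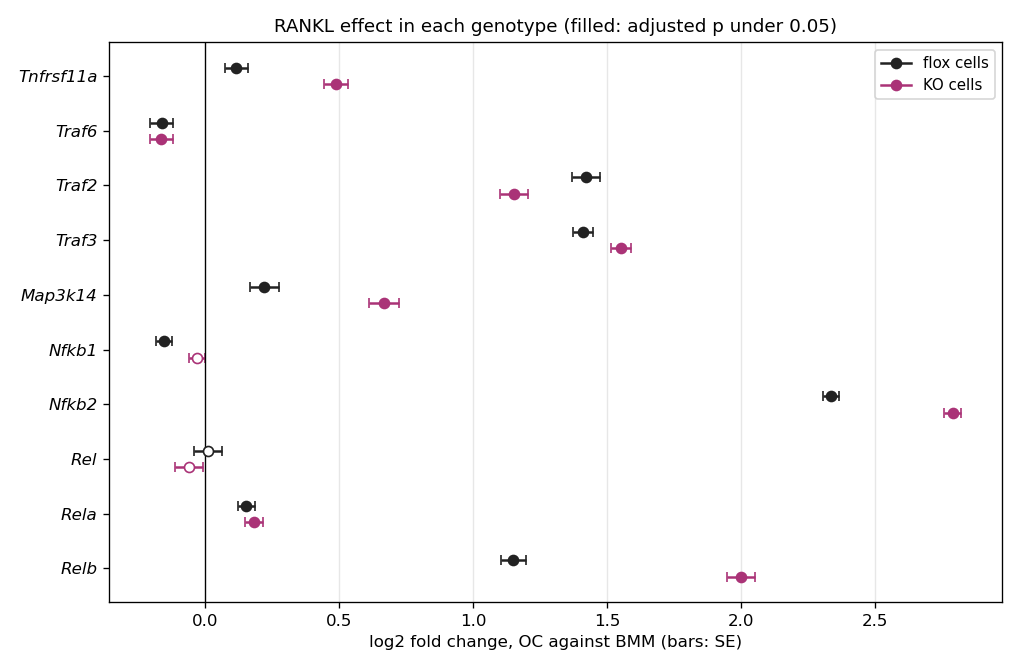
Log2 fold change of OC against BMM (x axis, bars are the SE) for each gene in flox and KO cells, with filled points past an adjusted p of 0.05. Nfkb2 lies at 2.34 and 2.79, Relb at 1.15 and 2.00, and Rel near 0 in both.

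The RANKL effect itself differed between genotypes for 6 of the 10 genes, 5 with a positive difference (KO minus flox, log2) and 1 with a negative one, against 21.9% of all genes that passed for this difference. Relb had the largest difference (0.85 log2, KO minus flox, SE 0.0733, edgeR adjusted p = 6.04e-13). Nfkb2 (0.45, SE 0.0464, adjusted p = 7.91e-11), Map3k14 (0.45, SE 0.0774, adjusted p = 1.31e-05) and Tnfrsf11a (0.37, SE 0.0626, adjusted p = 0.00018) followed. These 4 genes also had lower BMM levels in KO cells, as did Nfkb1, Traf3 and, narrowly, Rela. The BMM libraries enter both comparisons. Nfkb1 passed at 0.12 (SE 0.0421, adjusted p = 0.0269), a call lost in 8 of 17 alternatives, with an adjusted p of up to 0.112. With TMM scaling Nfkb1 was lower with RANKL in flox cells and did not pass in KO cells. Traf2 alone among the 6 rose less in KO cells (-0.27, SE 0.0745, adjusted p = 0.00589). Traf3 did not pass (0.14, SE 0.0534, adjusted p = 0.051), although it did without flox_BMM replicate 3 (0.19, adjusted p = 0.00405) or KO_BMM replicate 3 (0.17, adjusted p = 0.0319). The differences for Rel (-0.07, SE 0.0754), Rela (0.03, SE 0.0458) and Traf6 (-0.00024, SE 0.0621) did not pass.

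Levels of different genes were compared per kilobase of exon (RPKM, from TMM-scaled CPM). In flox_BMM the order was Rela (49.2), Tnfrsf11a (45.3), Nfkb1 (41.0), Nfkb2 (25.0), Rel (9.83), Traf3 (9.56), Relb (8.33), Traf6 (7.23), Map3k14 (5.03) and Traf2 (4.71 RPKM). Rela and Tnfrsf11a, Tnfrsf11a and Nfkb1, Rel and Traf3, Traf3 and Relb, and Map3k14 and Traf2 were not separated from each other over their 3 libraries. In KO_BMM Tnfrsf11a stood below Nfkb1 (28.8 against 36.6 RPKM), Relb fell to the ninth place (4.59 RPKM, not separated from Traf2 at 5.01), and Map3k14 was lowest at 3.57. In both OC groups the order was the same, with every neighbouring pair separated, although Traf6 and Map3k14 in flox_OC only by 6.1577 against 6.1573 RPKM in their nearest libraries: Nfkb2 (126 in flox_OC and 116 RPKM in KO_OC), Rela (54.8 and 52.8), Tnfrsf11a (49.1 and 40.4), Nfkb1 (36.8 and 35.8), Traf3 (25.4 and 22.8), Relb (18.5 and 18.4), Traf2 (12.7 and 11.2), Rel (9.90 and 9.91), Traf6 (6.45 and 6.48) and Map3k14 (5.86 and 5.67).

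The makeup of the subunit transcripts differed between the cultures. Summed over the 5 subunit genes, the level was 133 ± 1.58 RPKM in flox_BMM, 115 ± 1.85 in KO_BMM, 246 ± 0.96 in flox_OC and 233 ± 2.47 in KO_OC (SD, n = 3). Nfkb2 made up 18.7% ± 0.451 of that sum in flox_BMM and 14.6% ± 0.309 in KO_BMM, and 51.3% ± 0.372 in flox_OC and 49.8% ± 0.411 in KO_OC. Rela was the largest share with M-CSF alone (36.9% in flox_BMM and 40.5% in KO_BMM) and was at 22.2% and 22.7% with RANKL. The share of Relb was 6.25% ± 0.443 in flox_BMM and 3.99% ± 0.273 in KO_BMM, and 7.51% and 7.90% in the OC groups. These are shares of RNA and not of protein.

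**Figure D4:**
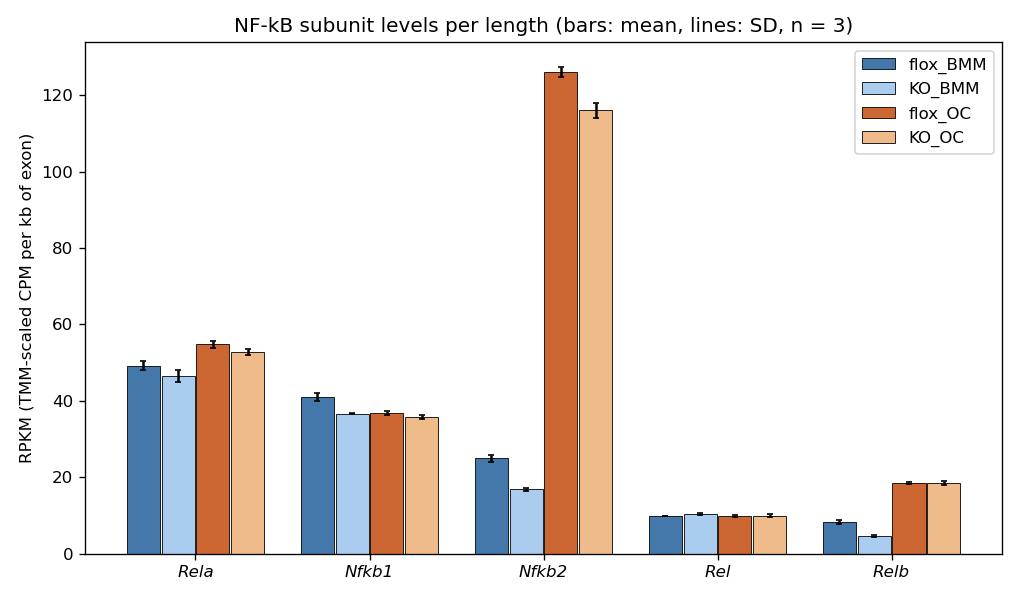
Level per kilobase of exon (RPKM, axis from 0) of the 5 NF-kB subunit genes in the 4 groups, with bars for the mean and lines for the SD of 3 libraries. Nfkb2 reaches 126 and 116 RPKM with RANKL, whereas Rel stays near 10 RPKM in each group.

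The genes whose 4 group means followed the receptor most closely were listed by the root mean square difference of centred log2 CPM over 8378 genes, as a description. For Tnfrsf11a these were Glrx, a glutaredoxin (0.0344 log2), Lpl, the lipoprotein lipase (0.0445), Slc39a10, a zinc transporter (0.0592), Npy, neuropeptide Y (0.0693), and Gadd45g (0.0703). Lpl, for instance, was at 3353, 2190, 3775 and 2866 CPM in flox_BMM, KO_BMM, flox_OC and KO_OC. For Nfkb2 they were Birc3, which encodes a ubiquitin ligase of the TRAF2 and TRAF3 complex (0.0944), Dock5 (0.122), Uck2 (0.142), Rin1 (0.157) and Slc4a7 (0.158). Birc3 was at 39.3, 24.9, 205 and 159 CPM in that same order of groups.

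Around the 10 genes, the rest of the pathway was read from lists of named genes. Beside the counts in these lists, 39.9% of all genes tested passed in KO_BMM against flox_BMM and 41.3% in KO_OC against flox_OC. With RANKL, 74.8% passed in flox and 70.5% in KO cells, and 21.9% passed for the difference of RANKL effects. The ligand gene Tnfsf11 was near absent, with 14 counts over all 12 libraries, and the decoy receptor gene Tnfrsf11b had 115. Tnfrsf11b was lower in KO cells (0.860 against 0.300 CPM in BMM, adjusted p = 0.000749), and stromal cells, whose markers fell too, are a known source of this gene. Their part in that difference was not tested. Of the 7 downstream TAK1 and IKK kinase genes, 1 was higher and 2 were lower in KO_BMM, 1 and 1 in KO_OC, 2 and 2 with RANKL in flox cells, and 2 and 1 in KO cells. Ikbkg, the regulatory IKK subunit NEMO, rose with RANKL in flox cells from 95.4 ± 2.97 to 140 ± 1.73 CPM (0.56 log2, SE 0.0341, adjusted p = 6.36e-20), and was lower in KO_OC at 107 ± 1.10 (-0.40 log2, SE 0.0333, adjusted p = 3.79e-14).

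Among 10 other TRAF and ubiquitin ligase genes, 4 rose and 3 fell with RANKL in flox cells, where 74.8% of all genes tested passed. Traf1, an adaptor without a RING domain, went from 10.0 ± 0.923 to 340 ± 7.03 CPM, or 33.9-fold (5.08 log2, SE 0.0471, adjusted p = 1.98e-53). Birc3 went up 5.21-fold (2.38 log2, SE 0.0388, adjusted p = 1.66e-43). Both were lower in KO cells: Traf1 by -0.44 log2 in BMM (adjusted p = 5.4e-05) and -0.36 in OC (adjusted p = 2.07e-14), and Birc3 by -0.65 (adjusted p = 5.49e-15) and -0.37 (adjusted p = 8.63e-14). In that list 1 gene was higher and 2 were lower in KO_BMM, and 0 and 3 in KO_OC.

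Of the 10 feedback inhibitor and atypical IkB genes, 7 rose and 1 fell with RANKL in flox cells, with a list median of 0.91 log2. The share of all genes tested that passed there was 74.8%. Nfkbia, the IkB that holds RelA dimers in the cytoplasm, went from 124 ± 4.51 to 401 ± 3.45 CPM (1.70 log2, SE 0.0305, adjusted p = 9.07e-42). In KO_BMM 7 of these genes were lower and 1 was higher, with a median of -0.31, and in KO_OC 6 were lower and 0 higher, with a median of -0.25. Over all genes tested, 39.9% passed in BMM and 41.3% in OC. Nfkbiz, an atypical IkB, was at 8.61 ± 0.461 CPM in KO_BMM against 18.6 ± 0.922 in flox_BMM (-1.11 log2, SE 0.0873, adjusted p = 5.04e-15). It did not differ detectably in OC, at 10.2 ± 1.07 CPM in KO_OC against 11.1 ± 1.57 in flox_OC (-0.13 log2, SE 0.0912, adjusted p = 0.282). Tnfaip3, the ubiquitin editor A20, was lower in KO cells in both cultures, by -0.77 log2 in BMM (SE 0.0534, adjusted p = 7.2e-17) and -0.81 in OC (SE 0.0474, adjusted p = 1.03e-19).

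Of the 19 genes listed as known NF-kB targets, 12 were tested. In KO_BMM 9 were lower and 0 higher (median -0.54 log2), and in KO_OC 7 were lower and 2 higher (median -0.21). Over all genes tested, 39.9% and 41.3% passed. Csf1, which encodes M-CSF, had a level of 18.9 ± 0.222 CPM in flox_BMM against 5.82 ± 0.713 in KO_BMM (a difference of -1.69 log2, SE 0.0866, adjusted p = 8.63e-22). Vcam1 (-1.76 log2, SE 0.2) was lower as well, at 3.68 CPM in flox_BMM and 1.08 in KO_BMM. So was Ptgs2 (-2.71 log2, SE 0.335), at 1.57 and 0.2335 CPM, the lower value being close to the level of 3 counts. Csf1 and Vcam1 are also expressed by stromal cells, whose markers fell in the same libraries, and their part in these values was not tested. With RANKL in flox cells 4 of the 12 rose and 6 fell, beside 74.8% of all genes tested that passed. Cxcl10, a chemokine gene, rose 8.36-fold (3.06 log2, SE 0.0726, adjusted p = 1.04e-36), while Bcl2l1, an anti-apoptotic gene, fell from 163 ± 4.66 to 29.7 ± 0.134 CPM (-2.46 log2, SE 0.039, adjusted p = 6.07e-44).

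Receptors related to RANK did not move in one direction. Of 20 listed TNF receptor family genes, 13 were tested, and in KO_BMM 2 were higher and 2 lower, in KO_OC 5 and 4. With RANKL in flox cells 4 rose and 7 fell, beside 74.8% of all genes tested that passed. Cd40 was higher in KO_OC than in flox_OC (9.58 ± 0.804 against 6.07 ± 0.578 CPM, 0.66 log2, SE 0.101, adjusted p = 5.26e-07), and Tnfrsf12a was lower (15.4 ± 1.18 against 24.7 ± 0.675 CPM, -0.69 log2, SE 0.0698, adjusted p = 1.42e-11). Tnfrsf9, a costimulatory receptor gene, was on average below the level of 3 counts in both BMM groups and at 3.92 ± 1.02 CPM in flox_OC and 1.52 ± 0.095 in KO_OC (-1.36 log2, adjusted p = 3.7e-08).

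The osteoclast genes that RANKL is known to induce (14 listed, 11 tested) were lower in KO_OC for 10 of the 11, with a median of -0.82 log2. In KO_BMM, without RANKL, 6 were lower and 2 higher, with a median of -1.10. The difference of RANKL effects had a median of -0.03 over the list, with 4 genes lower, 2 higher and 5 that did not pass. The lower ones included Acp5, the osteoclast acid phosphatase, which rose 4.57-fold with RANKL in flox and 2.01-fold in KO cells. Its difference was -1.185 log2 (KO minus flox, SE 0.0716, edgeR adjusted p = 4.73e-18). Acp5 was at 132 ± 3.79 CPM in flox_OC and 40.8 ± 1.30 in KO_OC (-1.70 log2, SE 0.0398, adjusted p = 2.86e-35). Dcstamp, a fusion gene, was at 57.6 ± 2.19 and 22.9 ± 1.11 CPM (-1.33 log2, SE 0.0531, adjusted p = 3.83e-26), and was also lower in KO_BMM (-1.53 log2, adjusted p = 1.73e-18), its RANKL effect not differing detectably (0.19, adjusted p = 0.243). In the same OC libraries Tnfrsf11a differed by -0.28, Traf2 by -0.18, Traf3 by -0.16, Nfkb2 by -0.12 and Relb by -0.0069 log2. With RANKL, 10 of the 11 rose and 1, Itgb3, fell in each genotype, beside 74.8% (flox) and 70.5% (KO) of all genes tested that passed.

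**Figure D5:**
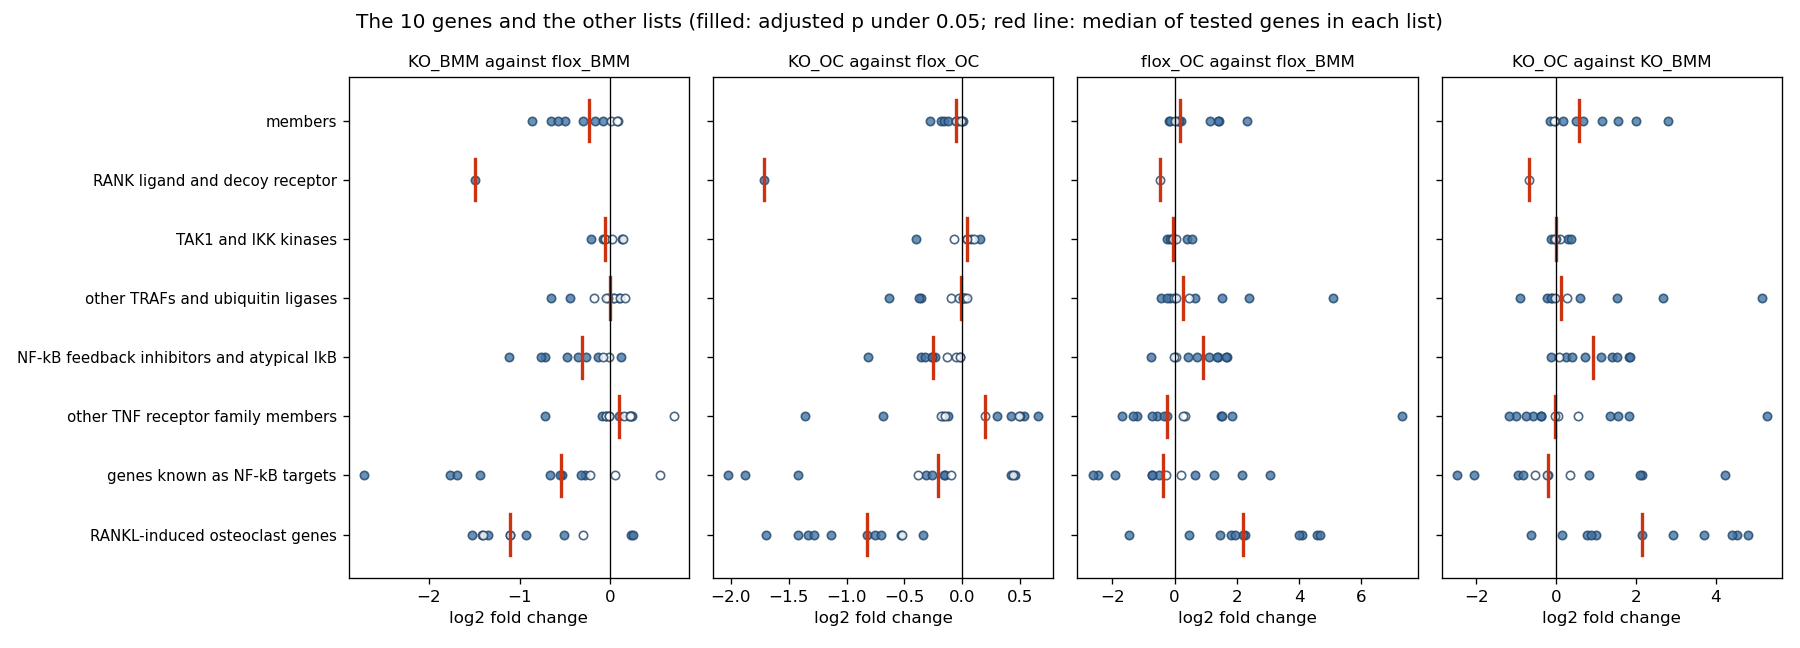
Log2 fold changes (x axis) of the 10 genes and of the tested genes of 7 pathway lists in 4 comparisons. Each point is a gene, filled where it passed at an adjusted p under 0.05, and the red line is the list's median. Feedback inhibitors have a median of -0.31 in KO_BMM against flox_BMM, and the osteoclast genes one of -0.82 in KO_OC against flox_OC.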

How the data were processed

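Libraries came from DNase-treated total RNA with oligo-dT selection, per the labels' protocols. The authors deposited raw read counts per gene, with no normalization. Per the submitters' processing notes, reads were aligned to GRCm38 with STAR 2.0.4b. Per the file headers, featureCounts 1.4.5-p1 counted them over exons by gene, ignoring strand, so that reads of overlapping or antisense genes cannot be told apart. Symbols matched 40254 identifiers, and the other 1134 (0.136% of counts) were kept in the fit. Chi-square tests between replicates of the same group found no library deposited a second time. Libraries of different groups were not compared in this way.

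The counts of 13030 genes passing edgeR's default low-count filter were tested with edgeR 4.0.16 (R 4.3.3): TMM factors, 4 group means over 12 libraries and the robust quasi-likelihood F test, for 5 comparisons. P-values were adjusted by Benjamini-Hochberg over all genes tested, with a threshold of 0.05. The SE was taken as the size of the log2 fold change divided by the root of F. Levels are TMM-scaled CPM, or the same per kilobase of the exon length in the files. Groups overlap unless all 3 libraries of one lie above all 3 of the other. Alternatives were DESeq2 1.42.0, library-size scaling, no filter, a stricter filter (5 CPM in 3 libraries), only the groups compared, the replicate block, and leaving out each library. The fit was tested on simulated data.

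The members and lists were chosen with earlier results of these data known. Named are the 10 members, and of each list and comparison up to 3 called genes with the largest change whose higher group reached 1 CPM, not all of which are described. For the receptor and the member with the largest RANKL effect in flox cells, the 5 named genes of at least 10 CPM with the most similar group means were added. Tnfsf11, Tnfrsf11b and the marker genes were named to describe the cells. Promoter windows came from the RefSeq table of GRCm38.p6.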

Additional observations from a re-analysis of the deposited data

Results flagged for a closer look

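The RANKL effect differed between genotypes for 6 of the 10 genes, by a test of the difference itself within the edgeR fit (values are log2, KO minus flox). Of all 13030 genes tested, 21.9% passed for this difference. Relb had a difference of 0.8501 (adjusted p = 6.04e-13), Nfkb2 of 0.4543 (adjusted p = 7.91e-11), Map3k14 of 0.4476 (adjusted p = 1.31e-05) and Tnfrsf11a of 0.3723 (adjusted p = 0.00018). In each of these 4 the KO_BMM libraries started lower, as they also did for Nfkb1 and for Traf3. Nfkb1 had a difference of 0.1242 (adjusted p = 0.0269) that depended on the setting. Traf2 had the opposite sign, at -0.2692 (adjusted p = 0.00589).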

How the results depend on the processing

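For the 10 genes under the alternative settings, 855 values stayed on their side of the threshold (825 with the same sign, and 30 that were called in neither fit with another sign), 28 lost the call, 4 gained it and 3 changed sign with a call in at least 1 of the fits. Those 3 arose with scaling by library size alone, where Traf6 with RANKL in flox cells was at 0.004559 log2, and Nfkb1 was at 0.01342 in flox and 0.1043 in KO cells. That scaling gave 8 genes higher and 0 lower in both RANKL comparisons, and moved the share of all called genes that were higher from 49.5% to 62.8% (flox), from 50.4% to 63.5% (KO), from 48.3% to 59.9% (genotype in BMM) and from 56.4% to 43.3% (difference of RANKL effects). Across settings 6 to 7 genes were called in KO_BMM, 4 to 4 in KO_OC, 8 to 9 with RANKL in flox, 8 to 8 in KO cells and 5 to 7 for the difference. In the main fit 39.9%, 41.3%, 74.8%, 70.5% and 21.9% of all genes tested passed, in the same order. No pairing by replicate number was seen: 0 of 18 same-numbered pairs had correlated deviations over 0.1 (-0.07 to 0.0872). Of 36 differently numbered pairs 4 did (-0.154 to 0.142), and 2 of 12 libraries correlated best with their own number. A pairing that leaves no shared deviation would not be found in this way. With the replicate block the counts were 6, 4, 9, 8 and 6, the Rela call in BMM being the one lost (adjusted p = 0.0526). In the BMM genotype comparison the SE of the 10 genes ran from 0.0298 (Nfkb1) to 0.0607 log2 (Relb), which limits calls on differences of that size.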
